A study of Mus musculus with 15 samples.

Results

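Genes of the splicing machinery's sequence-specific regulators were followed in cultured adipocytes kept for 0, 1 or 12 days at 31°C. Members were chosen by symbol: the serine/arginine-rich (SR) protein genes Srsf, the heterogeneous nuclear ribonucleoprotein (hnRNP) genes, the related Tra2a, Tra2b, Ptbp1 and Ptbp2, the SR protein kinase genes Clk1 to Clk4 and Srpk1 to Srpk3, and the Mbnl and Celf genes. Of the 18804 genes counted, 49 were members, namely 13 SR and Tra2 genes, 20 hnRNP and PTB genes, 7 kinase genes and 9 Mbnl and Celf genes. RNA was sequenced from adipocytes differentiated from mesenchymal stem cells of C57BL/6J mice, which per the study's methods came from the ear. Each of the 3 groups had 5 libraries, and all cells were harvested 16 days after adipogenesis was started. Cells of the day 0 group were never taken from 37°C, those of the day 1 group went to 31°C on day 15 and those of the day 12 group on day 4, so that most of differentiation in the day 12 group took place at 31°C and length of exposure and stage of differentiation cannot be told apart. Per the labels all groups were induced with methylisobutylxanthine, dexamethasone, insulin and troglitazone. The sources do not say if libraries within a group are separate mice or dishes, so p-values measure only the spread between these libraries, which may be technical.

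SR proteins bind short sequences in exons and mostly favor their inclusion, and hnRNP proteins bind many of the same transcripts and often oppose it. CLK and SRPK kinases phosphorylate the serine/arginine stretches of SR proteins and thereby set where these proteins are and what they bind, and CLK activity is known to be higher at cooler temperatures within the mammalian range. Muscleblind (MBNL) and CELF proteins regulate splicing during the maturation of muscle, brain and other tissues, often in opposite directions. SRPK2 is known to act downstream of the mTOR pathway in the splicing of lipogenic transcripts. Only counts per gene were analysed here, so nothing below speaks to the proportion of isoforms, to protein or to phosphorylation.

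Expression is given as CPM, the share of a library's counts scaled to a common size, adjusted between libraries by the trimmed mean of M-values. A member was called higher or lower when its adjusted p in edgeR's quasi-likelihood test, adjusted by Benjamini-Hochberg over all 14293 genes tested, was under 0.05 and its fold change was over 1.5, which is 0.585 on the log2 scale. The verbs rose and fell are kept for such calls. Of the 49 members, 46 had enough counts to be tested, and each of these 46 had at least 10 counts in every library. Celf3, Celf6 and Srpk3 were not tested, with at most 2, 11 and 1 counts in any library.

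Total counts ranged from 64648178 to 133270973 per library, and the 5 day 0 libraries all held more than the shallowest of either cool group. The first principal component of all genes held 52.2% of the variance and the second 23%, and the libraries separated by group. Adipocyte markers summed to 4420 to 5090 CPM at day 0, 5500 to 6170 at day 1 and 4900 to 5470 at day 12, so the labelled cell type was present in all groups. The sum is mostly Lpl, Fabp4 and Adipoq, and of 8 adipocyte markers 1 rose and 2 fell at day 1, and 2 rose and 4 fell at day 12, with Adipoq at -1.24 and Cidec at -1.59. Cold-inducible RNA-binding protein genes were used to check the labels, and Cirbp averaged 27.4, 164 and 103 CPM and Rbm3 46.6, 181 and 314 CPM at days 0, 1 and 12. Markers of proliferating cells summed to 106 to 120 CPM at day 0, 124 to 137 at day 1 and 225 to 260 at day 12, with 6 of 8 called higher at day 12 against day 0. Chondrocyte markers, led by Comp, summed to 3670 to 4400 CPM at day 0, 3900 to 4060 at day 1 and 1130 to 1220 at day 12, with 3 of 4 called lower at day 12. Stromal progenitor markers ranged from 1290 to 1540 CPM over all libraries, although Ly6a fell at day 12 (-1.42). Mesothelial or epithelial markers summed to 8.3 to 10.5 CPM at day 0, 12.2 to 14.4 at day 1 and 28.5 to 42.6 at day 12, where Msln rose by 5.51 and was most of the sum. Those of macrophages, endothelium and skeletal muscle did not exceed 13 CPM in sum. In such bulk samples fewer cells of a type and less RNA per cell cannot be told apart.

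Against day 0, 4 members rose and 10 fell at day 1, and 8 rose and 6 fell at day 12. Among all genes tested 7.71% were called higher and 13.4% lower at day 1, against 8.7% and 21.7% of members. At day 12, 13% of all genes were called higher and 16.2% lower, against 17.4% and 13% of members. Between the cool groups themselves, 5 members were higher and 3 lower at day 12 than at day 1, when 10.6% and 8.53% of all genes were. Scaled to total counts, 17 of the 46 members and 2982 of all 14293 genes were called higher at day 12. Scaled to total counts or to the reference genes, 10 members were higher at day 12 than at day 1. In that comparison these scalings moved the median log2 fold change of all genes from 0.009 to 0.182 and 0.163. With no fold limit, 40, 41 and 37 of the 46 members had an adjusted p under 0.05 in the 3 comparisons, against 71.5%, 76.6% and 67.2% of all genes. Srsf2, Srsf3 and Hnrnpd rose at both days, and Hnrnpc, Hnrnph3, Srsf12, Celf4 and Celf5 fell at both. Both comparisons rest on the same 5 day 0 libraries. No member was called in opposite directions at the 2 days. In all, 22 members were called in at least 1 comparison and 24 in none, and the map of all tested members by library shows both sets. In either direction, 30.4% of members were called at day 1, 30.4% at day 12 and 17.4% for day 12 against day 1. The same shares of all genes were 21.1%, 29.2% and 19.1%.

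**Figure D1:**
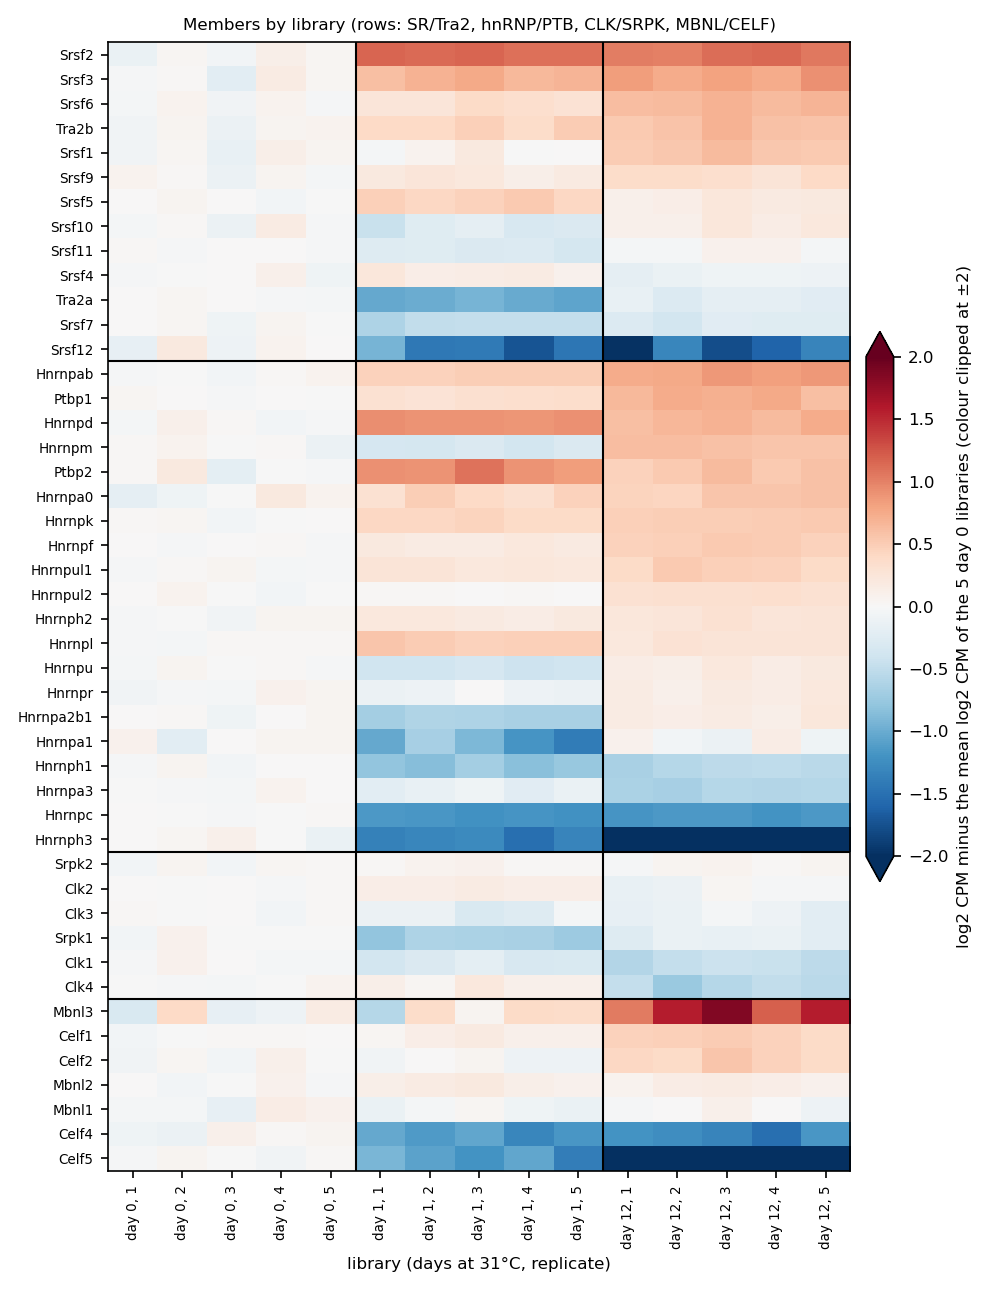
Each row is 1 of the 46 tested members and each column 1 of the 15 libraries, and the colour is log2 CPM minus the mean log2 CPM of the 5 day 0 libraries, clipped at ±2. Srsf2, Srsf3 and Hnrnpd are red and Hnrnpc, Hnrnph3, Srsf12, Celf4 and Celf5 blue in all 10 libraries kept at 31°C, whereas Tra2a, Hnrnpa1 and Hnrnpa2b1 are bluest in the day 1 columns.

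Promoters of 6 of the 8 members that moved the same way at both days are shown here so that their sequences stand beside the values that follow. They were taken from RefSeq on GRCm38.p6 and run from 250 bases before to 50 bases after the start site, 5′ to 3′ on the gene's strand. Capitals mark each CCAAT and each GGGCGG on either strand, the letters bound by NF-Y and by Sp factors. Windows of the members that rose lay at chr5:99978889-99979188, reverse strand (Hnrnpd), chr11:116853045-116853344, reverse strand (Srsf2) and chr17:29032410-29032709, forward strand (Srsf3).
Hnrnpd: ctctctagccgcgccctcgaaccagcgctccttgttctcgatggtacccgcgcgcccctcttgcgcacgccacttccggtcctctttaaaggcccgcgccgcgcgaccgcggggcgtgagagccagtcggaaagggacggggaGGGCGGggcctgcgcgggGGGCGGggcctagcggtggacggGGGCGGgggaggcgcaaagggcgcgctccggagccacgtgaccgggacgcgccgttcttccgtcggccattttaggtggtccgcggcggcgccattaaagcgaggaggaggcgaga
Srsf2: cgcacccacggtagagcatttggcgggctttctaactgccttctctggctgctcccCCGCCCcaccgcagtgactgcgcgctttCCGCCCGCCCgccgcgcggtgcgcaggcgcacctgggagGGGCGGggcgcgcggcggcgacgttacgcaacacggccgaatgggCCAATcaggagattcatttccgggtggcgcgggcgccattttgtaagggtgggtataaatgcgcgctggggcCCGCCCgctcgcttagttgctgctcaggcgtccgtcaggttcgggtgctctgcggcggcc
Srsf3: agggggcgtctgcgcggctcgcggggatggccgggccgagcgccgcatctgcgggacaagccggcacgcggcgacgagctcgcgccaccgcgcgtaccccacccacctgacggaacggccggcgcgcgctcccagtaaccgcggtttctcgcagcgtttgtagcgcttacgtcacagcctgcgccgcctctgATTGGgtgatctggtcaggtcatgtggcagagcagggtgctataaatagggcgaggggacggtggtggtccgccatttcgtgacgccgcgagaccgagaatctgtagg
Windows of the members that fell lay at chr14:52103972-52104271, reverse strand (Hnrnpc), chr10:63023800-63024099, reverse strand (Hnrnph3) and chr4:33209022-33209321, forward strand (Srsf12).
Hnrnpc: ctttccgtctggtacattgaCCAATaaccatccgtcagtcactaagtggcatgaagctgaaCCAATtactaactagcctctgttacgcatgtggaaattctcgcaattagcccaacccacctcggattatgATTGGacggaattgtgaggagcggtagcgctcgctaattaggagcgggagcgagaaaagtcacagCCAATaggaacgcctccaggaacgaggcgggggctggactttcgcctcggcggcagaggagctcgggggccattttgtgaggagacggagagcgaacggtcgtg
Hnrnph3: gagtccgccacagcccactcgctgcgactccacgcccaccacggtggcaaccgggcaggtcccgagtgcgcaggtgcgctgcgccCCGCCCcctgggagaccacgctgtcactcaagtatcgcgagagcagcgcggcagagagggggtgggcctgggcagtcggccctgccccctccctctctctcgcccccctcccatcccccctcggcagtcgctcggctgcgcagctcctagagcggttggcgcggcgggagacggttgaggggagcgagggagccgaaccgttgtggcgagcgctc
Srsf12: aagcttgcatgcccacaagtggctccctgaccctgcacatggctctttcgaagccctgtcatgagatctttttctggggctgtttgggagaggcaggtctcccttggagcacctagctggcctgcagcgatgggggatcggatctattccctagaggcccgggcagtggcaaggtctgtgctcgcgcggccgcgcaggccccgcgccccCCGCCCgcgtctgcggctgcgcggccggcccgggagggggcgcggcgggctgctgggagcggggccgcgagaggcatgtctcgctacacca
The Hnrnpc window held 4 CCAAT and 0 GGGCGG, and the Srsf2 window 1 CCAAT and 5 GGGCGG. Hnrnpd had 3 GGGCGG, Hnrnph3 and Srsf12 had 1 each, and Srsf3 had 1 CCAAT. Neither the rising nor the falling members shared a motif in all of their windows. Over the 76 promoters of the 46 members that had one, 71.1% held GGGCGG, against 35.7% of all 32851 mouse promoters of the same length. CCAAT was found in 44.7% of member promoters and 37.4% of all. For the E-box CACGTG the shares were 10.5% and 7.15%, and for GAANNTTC, part of the heat shock element, 10.5% and 7.86%. For TGACGTCA they were 7.89% and 1.79%, on 6 member windows, among them overlapping windows of Celf3, which was not tested. All motifs were searched on both strands, and none of these letter runs contains another. A gene with several start sites counts once for each, also where its windows overlap. Such matches describe the letters of the windows and no binding was measured.

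Among the SR genes, Srsf2 had the largest increase at both days. Srsf2 encodes SC35, which binds exonic enhancers and also acts in transcription elongation. Its level was 45.1, 50.8, 47.8, 53.8 and 50.8 CPM in the 5 day 0 libraries, 111, 109, 111, 107 and 106 CPM at day 1 and 100.4, 99.9, 107, 110.2 and 103 CPM at day 12. All 10 libraries kept at 31°C lay above all 5 at 37°C, and the 2 cool groups overlapped. The log2 fold change was 1.13 ± 0.0386 (SE, adjusted p = 8.08e-18) at day 1 and 1.07 ± 0.0386 (SE, adjusted p = 9.16e-18) at day 12, folds of 2.19 and 2.1. In the GENCODE annotation 25.3% of its exon bases lay in genes of the opposite strand, Mettl23 and Mfsd11, and whether the counting used strand was not stated. Mfsd11 itself had log2 fold changes of 0.06 and 0.14.

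Srsf3 encodes the smallest SR protein, which also takes part in mRNA export. It measured 64.7, 67.4, 57.2, 73.8 and 68.2 CPM at day 0, 99.96, 107, 111, 103 and 106 CPM at day 1 and 118, 110.1, 115, 111 and 125 CPM at day 12. No library kept at 31°C reached down to the day 0 values. The increase was 0.67 ± 0.0484 (SE, adjusted p = 8.89e-12) at day 1 and 0.81 ± 0.0484 (SE, adjusted p = 1.78e-13) at day 12 on the log2 scale. The day 1 call was lost when libraries were scaled to reference genes (log2 fold change 0.576) and when the fold limit itself was tested (adjusted p = 0.0804).

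Srsf6, a regulator of alternative exons in many tissues, passed the fold limit at day 12 only. Its values were 79.3, 85.9, 77.9, 86 and 80.2 CPM at day 0, 96.9, 97.2, 106, 103 and 99.7 CPM at day 1 and 125, 127, 133, 127 and 131 CPM at day 12. The 3 groups did not overlap, and they were ordered by time at 31°C. Against day 0 the log2 fold change was 0.30 ± 0.0331 (SE, adjusted p = 2.05e-08) at day 1 and 0.65 ± 0.0331 (SE, adjusted p = 6.89e-15) at day 12.

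Srsf12, also known as SRrp35 and described as an inhibitor of other SR proteins, fell at both days from a low level. It was at 2.01, 2.58, 2.1, 2.35 and 2.26 CPM at day 0, 1.18, 0.833, 0.848, 0.683 and 0.823 CPM at day 1 and 0.571, 0.908, 0.656, 0.741 and 0.899 CPM at day 12. Both cool groups lay below all day 0 libraries and overlapped each other. Log2 fold changes were -1.37 ± 0.159 (SE, adjusted p = 4.02e-08) and -1.58 ± 0.161 (SE, adjusted p = 3.33e-09). It was among the members with the largest spread, with a coefficient of variation of up to 20.9% within a group against a median of 3.6% to 3.89% over members.

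Scaled by the trimmed mean of M-values, the remaining SR genes stayed within the fold limit in all 3 comparisons. Values near the limit can pass it with total counts or reference genes, which gave 10 members higher at day 12 than at day 1, instead of 5. Srsf5, which is induced by growth stimuli in several cell types, ranged over 126 to 134 CPM at day 0, 173 to 186 CPM at day 1 and 139 to 151 CPM at day 12, so it was highest at day 1. Srsf7, a factor in splicing and export, showed the opposite order, at 39.9 to 43.8, 27.6 to 30.6 and 32.8 to 36.1 CPM, with a log2 fold change of -0.51 ± 0.0369 (SE, adjusted p = 1.1e-11) at day 1. Srsf1, the founding member of the family, differed little at day 1 (log2 fold change 0.04, adjusted p = 0.402) and by 0.55 at day 12. Srsf10, a splicing repressor when dephosphorylated, stood at -0.30 at day 1 and 0.16 at day 12. For Srsf4, Srsf9 and Srsf11 log2 fold changes against day 0 ranged from -0.28 to 0.34. Of the exon bases of Srsf4, 43% lay in Gm12992 on the opposite strand. Summed over the 13 SR and Tra2 genes, the level was 712 to 778 CPM at day 0, 873 to 917 at day 1 and 950 to 1009 at day 12. These ranges did not overlap.

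Tra2a and Tra2b, which encode close relatives of the SR proteins that bind purine-rich enhancers, moved apart at day 1. Tra2a measured 42.5, 43.3, 42.4, 41.7 and 41 CPM at day 0, 20.8, 21.1, 22.1, 21 and 20.3 CPM at day 1 and 38, 35, 37.2, 37.2 and 36.1 CPM at day 12. All day 1 libraries lay below every other library, and day 12 lay between the other groups without overlap. Tra2a fell by 1.00 ± 0.0334 on the log2 scale at day 1 (SE, adjusted p = 5.57e-18), was -0.20 ± 0.0324 (SE, adjusted p = 5.47e-06) at day 12 and was 0.80 ± 0.0337 (SE, adjusted p = 4.22e-16) higher at day 12 than at day 1. Tra2b measured 58.1, 63, 56.2, 63 and 63.8 CPM at day 0, 80, 79.9, 84.1, 78.1 and 86.5 CPM at day 1 and 87.2, 90.5, 98.8, 90.7 and 90.6 CPM at day 12. The 3 groups of Tra2b did not overlap and were ordered by time at 31°C. Its log2 fold change was 0.43 ± 0.0393 (SE, adjusted p = 7.72e-10) at day 1, under the fold limit, and 0.59 ± 0.0393 (SE, adjusted p = 1.29e-12) at day 12, just past it at a fold of 1.51. That call was lost with DESeq2 (0.583), with DESeq2 size factors (0.582), over genes of at least 1 CPM (0.582), with the 2 groups fitted alone (0.577), when the limit itself was tested (adjusted p = 0.711), and on leaving out replicate 1 (0.574) or 3 (0.563) of day 0 or replicate 3 (0.562) of day 12. Per kilobase of annotated exon, the ratio of Tra2b to Tra2a had a median of 1.09 over the day 0 libraries, 2.86 at day 1 and 1.89 at day 12. The lowest day 1 ratio was 2.8 and the highest day 12 ratio 2, so that the groups stood apart in this ratio as well.

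**Figure D2:**
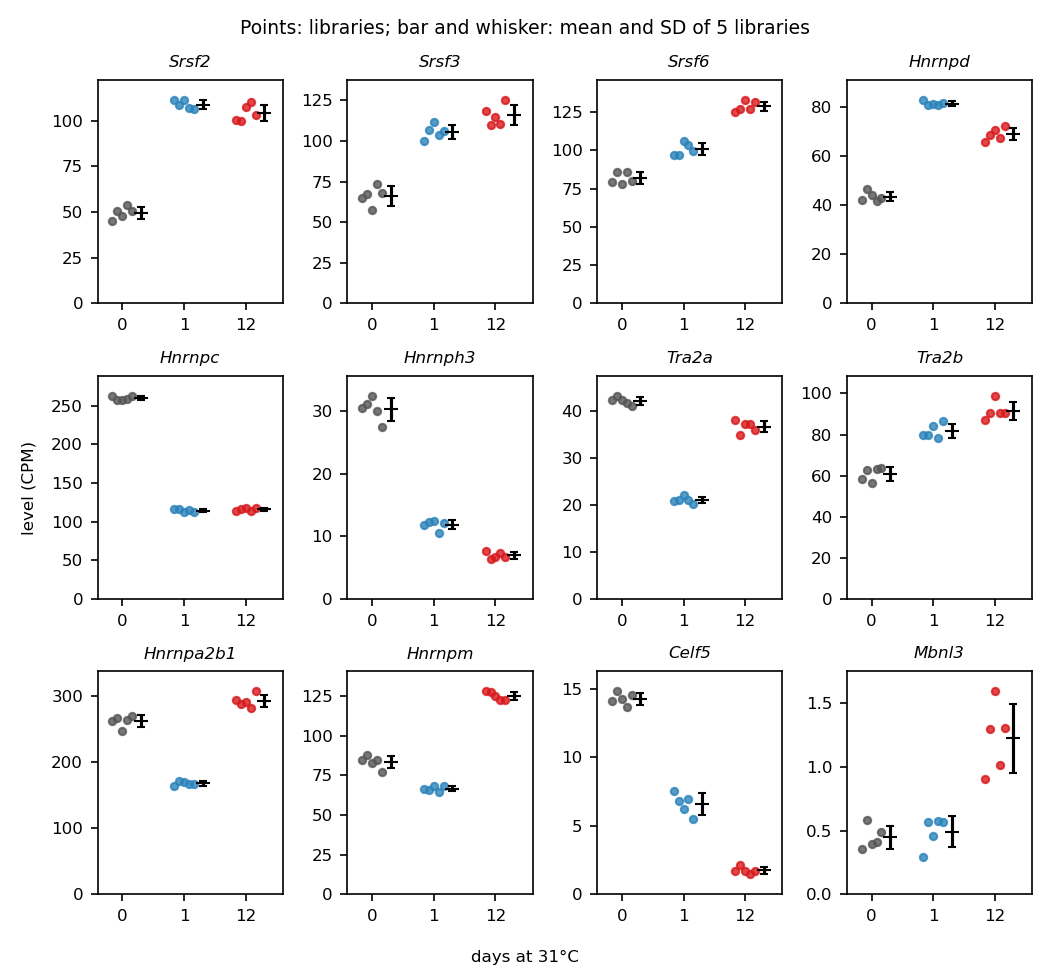
Level in CPM (vertical axis from 0, its own scale in each panel) against days at 31°C for 12 members, with 1 point per library and the mean and SD of 5 libraries to the right of each group. Srsf2, Srsf3 and Hnrnpd are higher and Hnrnpc, Hnrnph3 and Celf5 lower at both days. Tra2a and Hnrnpa2b1 are lowest at day 1, and Mbnl3 is higher at day 12 only.

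Of the 20 hnRNP and PTB genes, 2 rose and 5 fell at day 1, and 3 rose and 3 fell at day 12. That is 10% and 25% at day 1, against 7.71% and 13.4% of all genes. At day 12 it is 15% and 15%, near the 13% and 16.2% of all genes. The 3 that rose at day 12 became 9 with total counts, 5 with reference genes and 5 without day 0 replicate 2. Hnrnpd, which encodes AUF1, a protein that binds AU-rich elements and speeds or slows mRNA decay, was the hnRNP gene that rose at both days. Its levels were 42.1, 46.5, 44.2, 41.9 and 42.9 CPM at day 0, 82.7, 80.8, 81.3, 80.6 and 81.5 CPM at day 1 and 65.7, 68.7, 70.6, 67.5 and 72.4 CPM at day 12. The groups did not overlap, with day 1 highest. The log2 fold change was 0.90 ± 0.0322 (SE, adjusted p = 2.01e-17) at day 1 and 0.67 ± 0.0322 (SE, adjusted p = 2.81e-15) at day 12. Hnrnpab, whose product is closely related to AUF1, measured 108 to 118 CPM at day 0, 155 to 159 CPM at day 1 and 188 to 207 CPM at day 12. It rose at day 12 by 0.81 ± 0.0298 (SE, adjusted p = 1.36e-17) and stood at 0.48 at day 1. Of its exon bases 29.1% lay in Phykpl on the opposite strand.

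Hnrnpc, among the most abundant members, fell at both days. Its product forms tetramers on nascent transcripts and keeps cryptic exons from being included. Hnrnpc measured 262, 258, 257, 259 and 263 CPM at day 0, 116, 116, 112, 115 and 112 CPM at day 1 and 114, 116, 118, 114 and 117 CPM at day 12. The cool libraries all lay under the lowest day 0 library by a wide margin and overlapped each other. Log2 fold changes were -1.18 ± 0.0236 (SE, adjusted p = 3.85e-22) at day 1 and -1.16 ± 0.0236 (SE, adjusted p = 1.84e-22) at day 12, and the difference of the 2 was 0.02 ± 0.0236 (SE, adjusted p = 0.443). Within its sequence 8.28% of 50-base stretches also occurred in other genes, mostly the pseudogene Gm12696.

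Hnrnph3, a small relative of the hnRNP H and F proteins that bind G-rich runs, fell further with time. It was at 30.6, 31.1, 32.5, 30 and 27.6 CPM at day 0, 11.9, 12.3, 12.5, 10.6 and 12.2 CPM at day 1 and 7.62, 6.36, 6.67, 7.41 and 6.73 CPM at day 12. The 3 groups did not overlap. Log2 fold changes were -1.35 ± 0.0548 (SE, adjusted p = 2.07e-16) and -2.12 ± 0.0575 (SE, adjusted p = 4.39e-20), and day 12 was -0.78 ± 0.0593 (SE, adjusted p = 3.58e-11) against day 1. Its relative Hnrnph1 ranged over 97.4 to 105 CPM at day 0, 56 to 62.6 CPM at day 1 and 64.4 to 70.9 CPM at day 12. Hnrnph1 fell at day 1 by 0.78 ± 0.0333 (SE, adjusted p = 4.94e-16) and at day 12 stood at -0.56, within the fold limit. By contrast Hnrnph2 and Hnrnpf, of the same subfamily, were 0.19 and 0.18 at day 1 and 0.26 and 0.48 at day 12, all within the limit. The ratio of Hnrnph2 to Hnrnph1 per kilobase of exon went from 1.08 to 1.17 over the day 0 libraries to 2.07 to 2.35 at day 1 and 1.91 to 2.08 at day 12. Of the 50-base stretches of Hnrnpf 61.9%, and of Hnrnph2 15.9%, also occurred in other genes, so their levels are less certain.

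Hnrnpa2b1, Hnrnpa1 and Hnrnpm were low at day 1 and not at day 12. Hnrnpa2b1 encodes A2/B1, which binds RNA in splicing, transport and microRNA processing. It measured 261, 266, 246, 263 and 269.9 CPM at day 0, 163, 172, 169.8, 167 and 166 CPM at day 1 and 293, 287, 291, 282 and 307 CPM at day 12. No 2 groups overlapped. The log2 fold change was -0.64 ± 0.0284 (SE, adjusted p = 1.08e-15) at day 1 and 0.16 ± 0.0282 (SE, adjusted p = 1.79e-05) at day 12, and day 12 exceeded day 1 by 0.80 ± 0.0285 (SE, adjusted p = 1.85e-17). When the fold limit itself was tested the day 1 fall missed the threshold (adjusted p = 0.0576). Hnrnpm, whose product binds GU-rich sequences near exons, measured 84.8, 87.6, 82.9, 85 and 77.3 CPM at day 0, 66.2, 65.7, 68.4, 64.6 and 68.2 CPM at day 1 and 128, 128, 125, 122 and 123 CPM at day 12. Its groups were fully separated, with day 1 lowest and day 12 highest. Neither difference from day 0 was called, at -0.33 ± 0.031 (SE, adjusted p = 1.42e-09) and 0.58 ± 0.0307 (SE, adjusted p = 1.38e-14), but day 12 was above day 1 by 0.91 ± 0.0311 (SE, adjusted p = 9.11e-18). At day 12 its fold of 1.5 lay just under the limit, and it passed it with total counts (log2 fold change 0.777), reference genes (0.64), no filter on low counts (0.588), and on leaving out replicate 1, 2 or 4 of day 0 or replicate 3, 4 or 5 of day 12 (0.585 to 0.602). March2, which overlaps 14.7% of its exon bases on the same strand, had log2 fold changes of 0.47 and 0.55.

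Hnrnpa1, which encodes A1, a splicing silencer, was counted at only about 2 CPM. Its values were 2.32, 1.88, 2.2, 2.25 and 2.27 CPM at day 0, 1.08, 1.38, 1.16, 0.963 and 0.823 CPM at day 1 and 2.31, 2.09, 2, 2.41 and 2.05 CPM at day 12. The day 1 libraries lay below all others, and days 0 and 12 overlapped. The gene fell at day 1, at -1.02 ± 0.132 (SE, adjusted p = 2.18e-07), and was 1.01 ± 0.133 (SE, adjusted p = 3.59e-07) higher at day 12 than at day 1. In this gene 28.2% of 50-base stretches also occurred in other genes, 19 of them pseudogenes, and how reads with several matches were counted was not stated, so its level is uncertain. Hnrnpa3, with 27.1% of stretches shared and 41 pseudogenes, fell at day 12. It ranged over 93.8 to 101 CPM at day 0, 82.2 to 91 CPM at day 1 and 61.1 to 65.2 CPM at day 12, a log2 fold change of -0.60 ± 0.0309 (SE, adjusted p = 8.06e-15). That call was lost with total counts (-0.411), with reference genes (-0.548) and when the limit was tested (adjusted p = 0.402).

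Both PTB genes, whose products bind pyrimidine-rich tracts and repress exons, had higher levels in the cool. Ptbp1, the form of most non-neuronal cells, measured 169, 166, 162, 166 and 164 CPM at day 0, 205, 201, 206, 208 and 211 CPM at day 1 and 259.8, 276, 272, 279.9 and 249.8 CPM at day 12. Its groups did not overlap and followed time at 31°C, at 0.32 ± 0.029 (SE, adjusted p = 6.64e-10) on day 1 and 0.69 ± 0.0291 (SE, adjusted p = 1.59e-16) on day 12, when it passed the limit. Ptbp2, the neuronal paralog, measured 11.9, 13.4, 10.1, 11.6 and 11.5 CPM at day 0, 22, 21.6, 24.8, 21.7 and 20.7 CPM at day 1 and 16.1, 16.7, 18.1, 16.7 and 17.5 CPM at day 12. It was highest at day 1, when it rose by 0.92 ± 0.0602 (SE, adjusted p = 1.44e-12), and stood at 0.54 ± 0.0606 (SE, adjusted p = 1.72e-08) at day 12. The day 12 value passed the limit with total counts (0.735), with reference genes (0.599) and without day 0 replicate 2 (0.594). Of Ptbp1, 20.7% of exon bases lay in genes of the opposite strand.

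Calls were made in no comparison for the other 9 hnRNP genes, Hnrnpf and Hnrnph2 among them. Hnrnpk, an abundant protein binding C-rich runs, ranged over 336 to 359.9 CPM at day 0, 458 to 476 CPM at day 1 and 487 to 505 CPM at day 12, at log2 fold changes of 0.41 and 0.50. Hnrnpl, which binds CA repeats, was highest at day 1, at 0.50 against 0.25 at day 12. Hnrnpu, a nuclear scaffold protein, was lowest at day 1, with 271 to 289, 209 to 221 and 304 to 323 CPM. Hnrnpa0, Hnrnpul1 and Hnrnpul2 were at 0.51, 0.44 and 0.32 at day 12, and Hnrnpr at 0.16. The sum over all 20 hnRNP and PTB genes was 2539 to 2616 CPM at day 0, 2544 to 2597 at day 1 and 3002 to 3107 at day 12. Day 1 thus overlapped day 0 in sum while its members moved both ways, and day 12 lay above both.

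**Figure D3:**
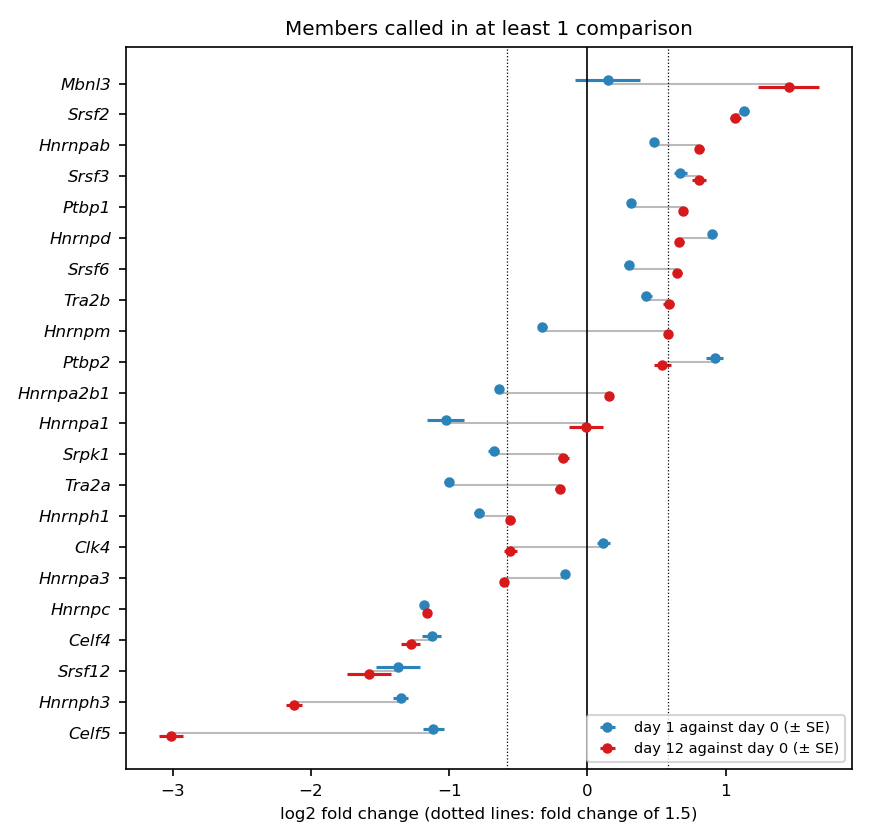
Log2 fold change against day 0 with its SE (horizontal axis) for the 22 members called in at least 1 comparison, for day 1 in blue and day 12 in red, with dotted lines at a fold change of 1.5. Blue and red points lie together for Srsf2 and Hnrnpc and far apart for Celf5, Hnrnpm, Hnrnpa1, Hnrnpa2b1, Tra2a and Mbnl3.

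Of the 6 kinase genes tested, Srpk1 fell at day 1, and 0 rose at either day by edgeR or DESeq2. The 1 that fell is 16.7%, against 13.4% of all genes called lower at day 1. At day 12 neither tool called a kinase gene against day 0, though 4 of 6 lay below 0 at an unadjusted p under 0.05 by edgeR. At day 1 the unadjusted p was under 0.05 for 2 that lay above 0, Clk2 and Clk4. Clk1, a kinase of SR proteins in the nucleus, measured 66.6, 71.8, 68.2, 66.3 and 66.1 CPM at day 0, 52.5, 55.3, 59.1, 54 and 54.7 CPM at day 1 and 45, 48.9, 50.3, 49.6 and 47.2 CPM at day 12. Its groups did not overlap and stood lower with longer time at 31°C, at -0.30 ± 0.0361 (SE, adjusted p = 8.25e-08) and -0.49 ± 0.0363 (SE, adjusted p = 8.72e-12), both within the fold limit. Clk4, its closest relative, measured 17.9, 17.8, 17.6, 17.9 and 19 CPM at day 0, 19.6, 18.4, 20.8, 19.3 and 19.4 CPM at day 1 and 13, 10.8, 12.2, 12.8 and 12.4 CPM at day 12. Days 0 and 1 of Clk4 overlapped and day 12 lay below both. Its log2 fold change was 0.11 ± 0.0474 (SE, adjusted p = 0.0349) at day 1 and -0.56 ± 0.0486 (SE, adjusted p = 1.99e-10) at day 12, and day 12 was lower than day 1 by 0.67 ± 0.0488 (SE, adjusted p = 1.32e-11). This last call was lost with total counts (-0.5), with reference genes (-0.519) and when the limit was tested (adjusted p = 0.0918).

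Clk2 and Clk3 encode kinases of the same family. Clk2 measured 22.1, 22, 22.2, 21.6 and 22.4 CPM at day 0, 24.3, 24.1, 24.6, 24.2 and 24.2 CPM at day 1 and 19.9, 20.3, 22.6, 21.7 and 21.6 CPM at day 12. It was slightly higher at day 1, at 0.14 ± 0.0368 (SE, adjusted p = 0.00178), and overlapped day 0 at day 12, at -0.06 ± 0.037 (SE, adjusted p = 0.167). Clk3 measured 47.7, 46.4, 46.9, 45.1 and 47.5 CPM at day 0, 43.1, 42.9, 37.8, 39.2 and 45.4 CPM at day 1 and 41.8, 42.6, 45.4, 43.5 and 40.5 CPM at day 12. Log2 fold changes of Clk3 were -0.17 ± 0.042 (SE, adjusted p = 0.00115) and -0.13 ± 0.0419 (SE, adjusted p = 0.00743), and 15.2% of its exon bases lay in Edc3 on the opposite strand, which was at 0.24 and 0.34. With libraries scaled by total counts the day 12 values of Clk2 and Clk3 took the opposite sign, at 0.136 and 0.063.

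Srpk1, which phosphorylates SR proteins in the cytoplasm and licenses their entry into the nucleus, measured 27.7, 30.5, 28.5, 28.5 and 28.7 CPM at day 0, 16.7, 18.8, 18.6, 18.4 and 17.4 CPM at day 1 and 24, 26.3, 26, 26.3 and 25 CPM at day 12. The 3 groups did not overlap, with day 1 lowest. It fell at day 1, at -0.68 ± 0.0407 (SE, adjusted p = 2.99e-13), and stood at -0.17 ± 0.0399 (SE, adjusted p = 0.000365) at day 12, a value that total counts put at 0.018. Srpk2 ranged over 71.5 to 77.3 CPM at day 0, 75.5 to 79.3 CPM at day 1 and 73 to 78.5 CPM at day 12, and its differences missed the threshold at both days (adjusted p = 0.186 and 0.286). The ratio of Srpk2 to Srpk1 per kilobase was 2.24 to 2.4 at day 0, 3.67 to 4.03 at day 1 and 2.57 to 2.75 at day 12. Srpk3, the muscle form, had at most 1 count in a library. The 7 kinase genes together summed to 254 to 266 CPM at day 0, 231 to 240 at day 1 and 217 to 235 at day 12.

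**Figure D4:**
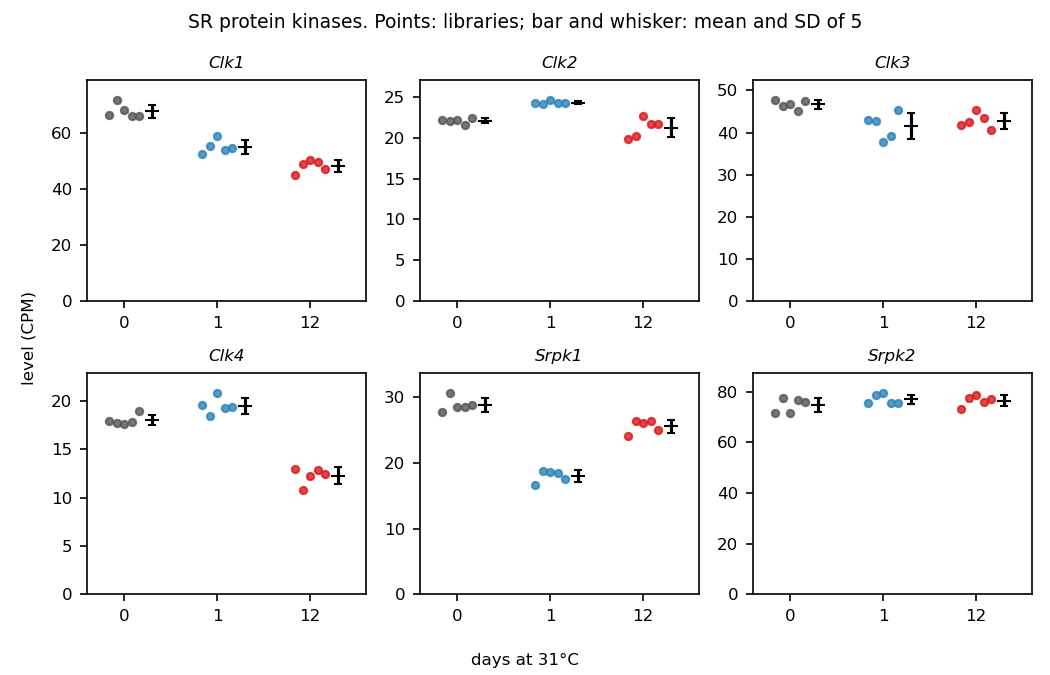
Level in CPM (vertical axis from 0, its own scale in each panel) against days at 31°C for the 6 tested kinase genes, with 1 point per library and the mean and SD of 5 libraries to the right of each group. Clk1 steps down over both cool groups, Clk4 is low at day 12 only, Srpk1 is lowest at day 1, and Clk2, Clk3 and Srpk2 stay within narrow ranges.

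Among the Mbnl and Celf genes, scaled by the trimmed mean of M-values, the abundant members stayed within the fold limit. The calls fell on members of low level. Values near the limit can pass it with total counts, which gave 17 members higher at day 12 instead of 8. Mbnl1 and Mbnl2, the main muscleblind genes outside the embryo, ranged over 179 to 224 CPM and 176 to 212 CPM in all 15 libraries. Mbnl1 differed by -0.07 (adjusted p = 0.161) and -0.01 (adjusted p = 0.925), and Mbnl2 by 0.14 and 0.12. Celf1 and Celf2, broadly expressed regulators of splicing and mRNA decay, were at 0.46 and 0.44 at day 12 and at 0.12 and -0.04 at day 1. Mbnl3, which is known to inhibit muscle differentiation, measured 0.357, 0.581, 0.393, 0.409 and 0.491 CPM at day 0, 0.294, 0.569, 0.457, 0.572 and 0.568 CPM at day 1 and 0.902, 1.3, 1.59, 1.01 and 1.3 CPM at day 12. All day 12 libraries lay above the others, and days 0 and 1 overlapped. Mbnl3 rose by 1.46 ± 0.22 (SE, adjusted p = 2.05e-06) at day 12 and was 0.15 ± 0.234 (SE, adjusted p = 0.585) at day 1. It had the largest spread of all tested members, with a coefficient of variation of up to 24.6%, and averaged 0.72 CPM over all libraries.

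Celf5 and Celf4, which are best known from brain, fell at both days. Celf5 measured 14.1, 14.8, 14.3, 13.7 and 14.6 CPM at day 0, 7.58, 6.8, 6.23, 6.96 and 5.49 CPM at day 1 and 1.73, 2.16, 1.71, 1.48 and 1.74 CPM at day 12. The groups did not overlap and stood lower with each longer exposure. At -3.01 ± 0.0882 (SE, adjusted p = 1.74e-19) the day 12 fall was the largest log2 fold change of any member, after -1.11 ± 0.0767 (SE, adjusted p = 3.89e-12) at day 1. The step from day 1 to day 12 was -1.90 ± 0.0909 (SE, adjusted p = 5.09e-15). Celf4 measured 10.9, 10.7, 12.4, 11.8 and 12 CPM at day 0, 5.67, 5.24, 5.63, 4.69 and 5.17 CPM at day 1 and 5.01, 4.88, 4.64, 4.05 and 5.13 CPM at day 12. Its cool groups overlapped each other and lay below day 0, at -1.13 ± 0.0708 (SE, adjusted p = 7.2e-13) and -1.28 ± 0.0713 (SE, adjusted p = 4.31e-14). Neuron markers summed to 2.82 to 3.77 CPM at day 0, 2.31 to 3.36 at day 1 and 3.91 to 5.12 at day 12. Most of this sum was Tubb3, which was not called against day 0, while Syt1, at under 1 CPM, fell at both days (-1.25 and -1.02) and Snap25 rose at day 12 (2.70). Of the 4 chondrocyte markers 3 fell at day 12, and Sox9 among them stood at -0.39 at day 1. The part of these cell types in the result was not tested.

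Compared per kilobase of annotated exon, Hnrnpf had the highest level of the members at day 0, at 72.6 ± 1.01 CPM per kilobase (mean ± SD, n = 5). Hnrnpc followed at 60.1 ± 0.642 and Hnrnpk at 54.2 ± 1.45. At day 12 the order was Hnrnpf at 102 ± 2.07, Hnrnpk at 76.7 ± 1.06 and Hnrnpab at 71.2 ± 3.03, with Hnrnpc down to 26.8 ± 0.414. The library values of neighbours in these orders did not overlap. Among the SR genes Srsf5 was highest at day 0, at 32.6 ± 0.803, and Srsf2 had 16.8 ± 1.12 at day 0 and 35.2 ± 1.51 at day 12, when Srsf5 had 36.5 ± 1.24. The day 12 values of Srsf2 and Srsf5 overlapped. Among the kinases Clk1 was highest at day 0, at 8.34, followed by Clk3 at 5.53 and Srpk2 at 5.37, whose values overlapped those of Clk3. The lowest tested member was Mbnl3, at 0.0511.

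The tested members were abundant, with a median of 78.7 CPM against 19.3 CPM over all tested genes. All 49 matched the GENCODE annotation, where 63% of those tested had a transcript annotated as subject to nonsense-mediated decay, against 27.8% of 12292 tested protein-coding genes. Retained-intron transcripts were annotated for 78.3% and 57.3%. Such transcripts are a known way in which SR and hnRNP proteins limit their own mRNA, but the median number of annotated transcripts was also larger, 10 against 5, and counts per gene do not separate them. Over 10% of exon bases were shared with another gene for 7 members, and over 10% of 50-base stretches for 14.

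At day 12 the proliferation markers and several members were higher together. The 8 members that rose at day 12 were Srsf2, Srsf3, Srsf6, Tra2b, Hnrnpab, Hnrnpd, Ptbp1 and Mbnl3, and the part of proliferating cells in this result was not tested. At day 1, where the proliferation markers had a median log2 fold change of 0.21 with 2 of 8 called higher, Srsf2, Srsf3 and Hnrnpd had risen as well, Hnrnpd to a level above that of day 12. Over the 46 members the median log2 fold change at day 1 was 0.045, when that of all genes was -0.009, and at day 12 the medians were 0.161 and 0.012. The members took 0.395%, 0.41% and 0.53% of all counts at days 0, 1 and 12.

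Other genes of the splicing pathway were followed through 8 lists, for which 177 of 178 genes were found in the table. Of 32 core small nuclear ribonucleoprotein (snRNP) genes tested, 5 rose and 0 fell at each day, which is 15.6% higher against 7.71% of all genes at day 1 and 13% at day 12, and the medians were 0.30 and 0.25. Of these 32, 28 lay above 0 at day 1 and 24 at day 12, while 3 and 5 lay below 0 at an unadjusted p under 0.05 by edgeR and DESeq2 called 0 lower. Snrpb, a core Sm protein, rose by 0.85 ± 0.0245 (SE, adjusted p = 3.83e-19) at day 1, and Lsm5, of the U6 ring, by 0.78 ± 0.0885 (SE, adjusted p = 2.59e-08) at day 1 and 0.90 ± 0.0881 (SE, adjusted p = 1.58e-09) at day 12. Ppih, a cyclophilin of the tri-snRNP, rose by 0.78 at day 12. Of 18 factors for the 3′ splice site and branch point, 2 rose at day 1, which is 11.1%, against 7.71% of all genes. These 2 were U2af1, which reads the AG at the intron's end, at 0.77, and the helicase gene Ddx46 at 0.76. At day 12 edgeR and DESeq2 called 0, with 12 above and 4 below 0 at an unadjusted p under 0.05 by edgeR. Of 20 Prp19 complex and catalytic step genes 0 were called by edgeR or DESeq2 in any comparison, although 14 lay above 0 and 3 below at an unadjusted p under 0.05 at day 1.

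Other sequence-specific regulators moved both ways, as the members did. Of 37 tested, 3 rose and 3 fell at day 1, which is 8.11% each, against 7.71% and 13.4% of all genes. At day 12, 7 rose and 3 fell, which is 18.9% and 8.11%, against 13% and 16.2% of all genes. Ewsr1, which encodes an RNA-binding protein, rose by 1.01 and 0.74 at the 2 days, whereas Taf15, which encodes another, was -0.47 at day 1 and fell by 0.88 at day 12. Tia1 and Rbm38 rose at day 12, by 1.05 and 1.06, and Rbm47 fell at both days (-0.68 and -0.82), the day 1 call being lost when the fold limit itself was tested (adjusted p = 0.287).

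Of 27 SR-related genes, 3 were called at day 1, of which 1 rose, and 3 at day 12, of which 2 rose. That is 11.1% called at each day, against 21.1% and 29.2% of all genes. Srek1, which encodes a regulator rich in serine and arginine, measured 33.2 to 35 CPM at day 0, 15.8 to 17.8 CPM at day 1 and 31.2 to 35.1 CPM at day 12. It fell by 1.02 at day 1. D4Wsu53e, the older symbol of Rsrp1, fell at both days (-1.79 and -1.20), and Bclaf1 rose at both (0.64 and 0.65), calls that were lost when the fold limit itself was tested (adjusted p = 0.209 and 0.0571). Rbm25 rose at day 12 by 0.75, and Acin1 was 0.76 higher at day 12 than at day 1. Of 15 further SR protein kinases, phosphatases and importins, 1 was called, the protein phosphatase gene Ppp1ca, at 0.78 ± 0.0246 (SE, adjusted p = 6.65e-19) on day 12. That is 6.67% of this list, against 29.2% of all genes called at day 12. Of 16 exon junction and nonsense-mediated decay genes, 2 rose at each day, which is 12.5%, against 7.71% and 13% of all genes. They were Eif4a3, the anchor of the exon junction complex (0.71 and 0.65), and its partner Magoh (0.65 and 0.65). The calls of Magoh were lost when the fold limit itself was tested (adjusted p = 0.164 and 0.0805). Of 8 minor spliceosome genes, Zcrb1 rose (0.75) and Snrnp48 fell (-0.84) at day 1, and Snrnp48 was called lower at day 12 too (-0.59). That day 12 call was lost with total counts (-0.395), with reference genes (-0.532) and on leaving out replicate 3 or 5 of day 0 or replicate 1, 3 or 4 of day 12 (-0.581 to -0.542). Called were 25% of this list at day 1 and 12.5% at day 12, against 21.1% and 29.2% of all genes.

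**Figure D5:**
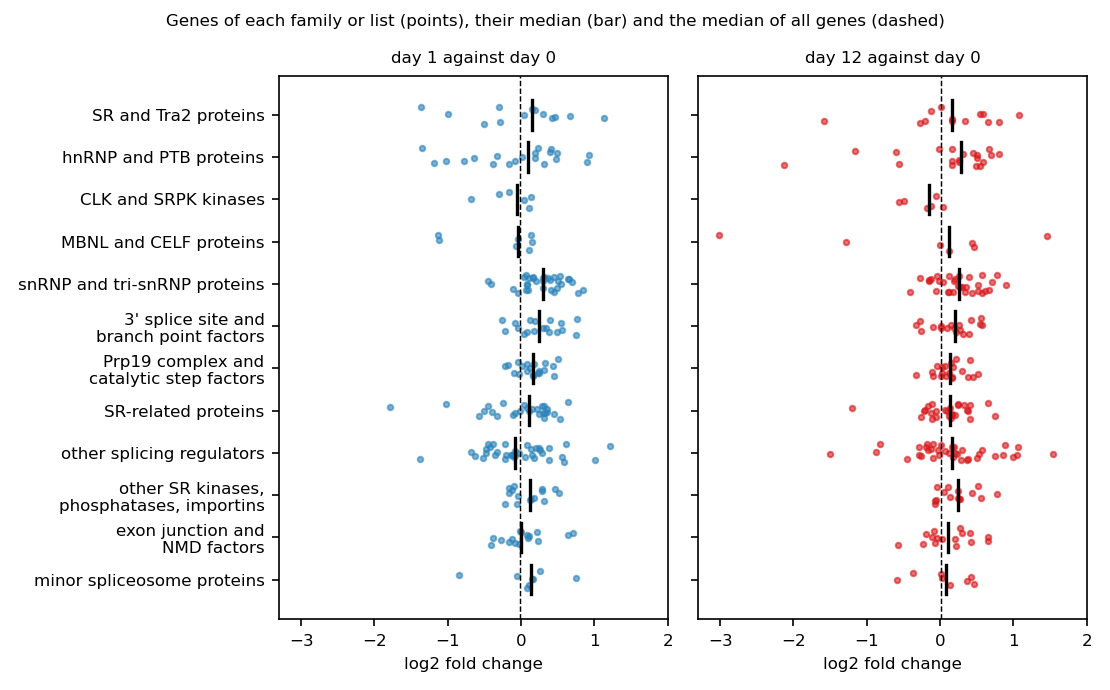
Log2 fold change against day 0 (horizontal axis) of each tested gene in the 4 member families and the 8 pathway lists, at day 1 on the left and day 12 on the right, with each list's median as a bar and the median of all tested genes as a dashed line. The snRNP genes lie mostly to the right of the dashed line at both days (medians 0.30 and 0.25). At day 12 the hnRNP and PTB genes do so as well (15 of 20 above 0, median 0.287). At day 1 these, and at both days the SR, MBNL and CELF genes, spread to both sides.

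A further 3 genes of these families stood in the table under older symbols and so fell outside the choice by symbol. Hnrpdl, now Hnrnpdl, ranged over 50.9 to 55.6 CPM at day 0, 121 to 135 CPM at day 1 and 55.8 to 64.1 CPM at day 12. It rose at day 1 by 1.24 ± 0.0363 (SE, adjusted p = 5.63e-19) and was -1.08 ± 0.0362 (SE, adjusted p = 6.18e-18) at day 12 against day 1. Hnrpll, now Hnrnpll, was at 0.35 and 0.51, and Rod1, now Ptbp3, at 0.19 and 0.21.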

How the data were processed

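RNA of cultured adipocytes was sequenced in 15 libraries, in 3 groups of 5 that were taken from the labels. Per the labels and the study's methods, the authors checked reads with FastQC, aligned them to mm10 with TopHat2 2.0.13 and Bowtie2 2.2.1 and counted reads per gene with HTSeq. The deposited values used here were these raw counts, and strandedness, annotation and the handling of reads with several matches were not given in the sources used here. The authors also deposited regularized log values and DESeq2 tables of fold changes and p-values for each day against day 0, which were not used.

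Genes were filtered with filterByExpr (minimum count 10), libraries were scaled by TMM, and all 15 libraries were fitted together with edgeR 4.0.16 (quasi-likelihood test, R 4.3.3), with no covariate. Calls used the authors' thresholds. The SE was the log2 fold change over the square root of F. Alternatives, among them DESeq2 1.42.0, are given at the end. Levels per kilobase and overlaps used GENCODE M21 exons on GRCm38, the same build as mm10, and older symbols were matched through RefSeq. Total counts ranged from 64648178 to 133270973, and 3 counts, the limit that a count of 0 allows, came to 0.0238 to 0.0428 CPM over the libraries, which covers counting error only.

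Members and gene lists were chosen with earlier results of these data known. All members could be named, with full values for those called and for Clk1 to Clk4, and up to 2 higher and 2 lower called genes of at least 1 CPM per pathway list. A result that this rule would name is not reported here.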

Additional observations from a re-analysis of the deposited data

Results flagged for a closer look

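In 5 of 138 groups of 5 libraries, 1 library stood far from the other 4, and chance alone gives about 1 in 20 such groups. Clk4 in day 0 replicate 5 was at 19 CPM, against 17.6 to 18 CPM in the others. Hnrnpa1 in day 0 replicate 2 was at 1.88 CPM, against 2.2 to 2.32 CPM. In day 1 replicate 3, Hnrnpr was at 60.7 CPM, against 55.6 to 56.6 CPM, and Hnrnpu at 221 CPM, against 209 to 213 CPM. Srsf7 in day 1 replicate 1 was at 27.6 CPM, against 30.1 to 30.5 CPM.

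Days 12 and 1 differed for 8 members, by the edgeR test of the difference itself together with the fold limit. That is 17.4% of members, against 19.1% of all genes tested. With no fold limit, 37 of the 46 members had an adjusted p under 0.05, or 80.4%, against 67.2% of all genes. Day 12 was higher for Mbnl3 (log2 difference 1.31, adjusted p = 1.42e-05), Hnrnpa1 (1.01, adjusted p = 3.59e-07), Hnrnpm (0.91, adjusted p = 9.11e-18), Tra2a (0.8, adjusted p = 4.22e-16) and Hnrnpa2b1 (0.8, adjusted p = 1.85e-17). Day 12 was lower for Celf5 (-1.9, adjusted p = 5.09e-15), Hnrnph3 (-0.77, adjusted p = 3.58e-11) and Clk4 (-0.67, adjusted p = 1.32e-11).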

How the results depend on the processing

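With no fold limit the members called higher and lower numbered 21 and 19 at day 1, 27 and 14 at day 12, and 26 and 11 for day 12 against day 1. Of all 14293 genes, 5049 were then called higher and 5177 lower at day 1. In either direction 76.6% of all genes were called at day 12 and 67.2% for day 12 against day 1. Total counts gave 17 members higher at day 12, and total counts and reference genes each gave 10 higher at day 12 than at day 1. These scalings moved the median of all genes, total counts to 0.205 at day 12 and 0.182 for day 12 against day 1, and reference genes to -0.107 at day 1 and 0.163 for day 12 against day 1. The share of called genes that were lower went from 63.5% to 75.8% at day 1 with reference genes, from 55.6% to 35.9% at day 12 with total counts, and from 44.7% to 27.3% (total counts) and 29% (reference genes) for day 12 against day 1. The median of members at day 1 was -0.053 with reference genes. Signs turned at day 12 for Clk2 (0.136), Clk3 (0.063) and Srpk1 (0.018) with total counts, and for Hnrnpa1 with total counts (0.184), reference genes (0.045) and the libraries of the larger number series in the titles (0.026). Hnrnpa1 ranged from -0.058 to 0.019 with 1 library left out. For day 12 against day 1 signs turned for Celf4 (0.02 and 0.003) and Srsf2 (0.11 and 0.091) with total counts and reference genes, and for Rod1 in the larger series (-0.016). With 1 library left out, Rod1 ranged from -0.014 to 0.046 and Clk3 from -0.001 to 0.07. With the replicate number as a block the counts of members higher and lower, 4 and 10 at day 1, 8 and 6 at day 12, and 5 and 3 for day 12 against day 1, were as without it. Deviations of same-numbered libraries correlated only at r = -0.026 to 0.044, while 10 of 15 libraries correlated best with their own number. Whether the numbers pair the libraries is thus not settled. Leaving out 1 library at a time gave 7 to 10 members higher at day 12. Under a minimum mean of 1 CPM Mbnl3 was not among the genes tested. With reference genes Bclaf1 (0.537) and Magoh (0.548) were not called at day 1. The cause was not tested for any of these changes.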
